A study of Mus musculus with 6 samples.

Results

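The limbal and corneal zone marker genes described here are 10 genes, *Gpha2*, *Ifitm3*, *Cd63*, *Abcg2*, *Abcb5*, *Bmi1*, *Slurp1*, *Clu*, *Upk1b* and *Cdh13*. They were taken by gene symbol from a deposited table of 17554 genes, and all 10 were found. The samples were the corneal epithelial layer of 3 control mice, labelled wild type (WT), and of 3 mutant mice, labelled *Rela*-/- and described in the study's methods as *Krt14-Cre; Rela* f/f. All 6 samples were labelled C57BL/6 and 2 months of age, and the study compared the genotypes to learn what canonical NF-κB signaling does in this epithelium. *Krt14-Cre* drives its recombinase from the keratin 14 promoter and removes floxed *Rela*, the gene of the NF-κB subunit RelA. In the mouse this promoter is active in the limbus, cornea, conjunctiva and meibomian glands, and outside the eye in skin and other squamous epithelia. Whether control mice carried *Krt14-Cre* or floxed alleles, and how much limbus each sample held, are not given in the sources used here.

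The cornea is covered by a stratified epithelium that is renewed from stem cells in the limbus, the ring between cornea and conjunctiva. Cells leave the limbus toward the centre of the cornea, and basal cells move up to the surface as they differentiate. The 10 genes fall into 3 zone groups and 1 single gene. *Gpha2*, *Ifitm3* and *Cd63* have been used to mark quiescent stem cells of the outer limbus. *Abcg2*, *Abcb5* and *Bmi1* have been used to mark limbal stem cells more generally, the first 2 as transporters and *Bmi1* as a factor of self-renewal. *Slurp1*, *Clu* and *Upk1b* are abundant transcripts of the corneal epithelium, and *Cdh13* encodes T-cadherin, a cadherin that is held to the membrane by a lipid anchor.

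In each sample the RNA of all cells was sequenced together, with expected counts summing to 19492942 to 19733834 per sample, so that depth hardly differed between the genotypes. A gene was held detectable from 3 counts upward, which corresponds to 0.152 to 0.154 CPM here and allows for counting error only. *Rela*, the targeted gene, had an FPKM (a level set relative to transcript length and library size) of 33.4 to 36.5 in control samples and of 4.93 to 5.72 in mutant samples. The labelled tissue carried its defining markers, with an FPKM of *Krt12* between 17005 and 21194 and of *Pax6* between 185 and 222 over all 6 samples. Control and mutant samples separated along the first principal component (65.7% of the variance). The second (11.6%) set mutant sample 1 (24.1) farthest from mutant sample 3 (-20.6).

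Promoter sequences are shown for *Ifitm3* and *Abcg2*, the limbal markers that changed in the mutant mice and have an entry in the RefSeq table used. The table gave promoters of 300 bases, 250 before and 50 from the transcript start, for 6 of the 10 genes (*Gpha2*, *Ifitm3*, *Cd63*, *Abcg2*, *Abcb5* and *Bmi1*), with 3 starts for *Abcg2*. Each was searched on both strands for 4 motifs. These were the degenerate κB consensus, which RelA can bind, a looser κB form (GGG, any 5 bases, CC) that holds every match of the first, the interferon response element (GAAA, any 2 bases, GAAA) and the AP-1 element (TGANTCA). The sequences below read 5′ to 3′ along the gene in build GRCm38.p6, with matches to the κB consensus, the interferon response element and the AP-1 element in capitals.
*Ifitm3*, chr7:141010695-141010994, minus strand: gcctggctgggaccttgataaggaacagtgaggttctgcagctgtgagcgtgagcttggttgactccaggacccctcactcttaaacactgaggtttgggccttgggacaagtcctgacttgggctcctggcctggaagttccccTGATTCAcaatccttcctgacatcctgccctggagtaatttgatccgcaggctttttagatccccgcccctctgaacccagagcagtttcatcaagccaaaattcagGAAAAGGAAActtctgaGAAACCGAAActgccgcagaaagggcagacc
*Abcg2*, chr6:58596422-58596721, plus strand: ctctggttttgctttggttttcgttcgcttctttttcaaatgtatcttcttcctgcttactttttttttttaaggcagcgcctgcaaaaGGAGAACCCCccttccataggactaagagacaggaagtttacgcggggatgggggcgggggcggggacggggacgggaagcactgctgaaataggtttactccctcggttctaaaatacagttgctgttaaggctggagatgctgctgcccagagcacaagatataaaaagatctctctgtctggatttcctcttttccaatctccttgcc
The *Ifitm3* window held the interferon response element at 2 places, whose first bases are bases 2 and 19 after the start, and the AP-1 element with its first base 105 before the start. It held no κB consensus match, and the looser form began 116 bases before the start. The *Abcg2* window shown held a κB consensus match 161 bases before the start, and neither of the other 2 *Abcg2* windows, which are not shown, held one. Which of the 3 starts is used in these samples was not tested. *Gpha2* had an interferon response element 188 bases before its start. Over 32851 mouse promoters of the same length, the κB consensus was found in 4.51%, the looser form in 50.8%, the interferon response element in 3.44% and the AP-1 element in 7.81%, against 1, 5, 2 and 1 of the 8 promoters of the 6 genes. A match describes the letters of these windows and is not a bound site.

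Levels of the 10 genes were compared per transcript length, by FPKM in control samples. *Slurp1* stood highest, above 99.9% of the 12667 genes that passed the filter on low counts, followed by *Upk1b* (above 99.7%) and *Clu* (above 98.0%). The control ranges of these 3 corneal genes did not overlap each other. *Ifitm3*, *Abcg2*, *Gpha2* and *Bmi1* came next, each between 54.7% and 63.1% of the tested genes. Neighbours among these 4 overlapped in control samples, so that the order of neighbours cannot be read from 3 samples. *Bmi1* (8.81 to 10.54) lay below every control value of *Ifitm3* (10.73 to 17.56) and *Abcg2* (12.36 to 14.45). *Cdh13* lay lower (above 24.7%) and *Cd63* lower still (above 8.27%), with *Abcb5* near 0. The median tested gene had a mean control FPKM of 8.22.

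**Figure D1:**
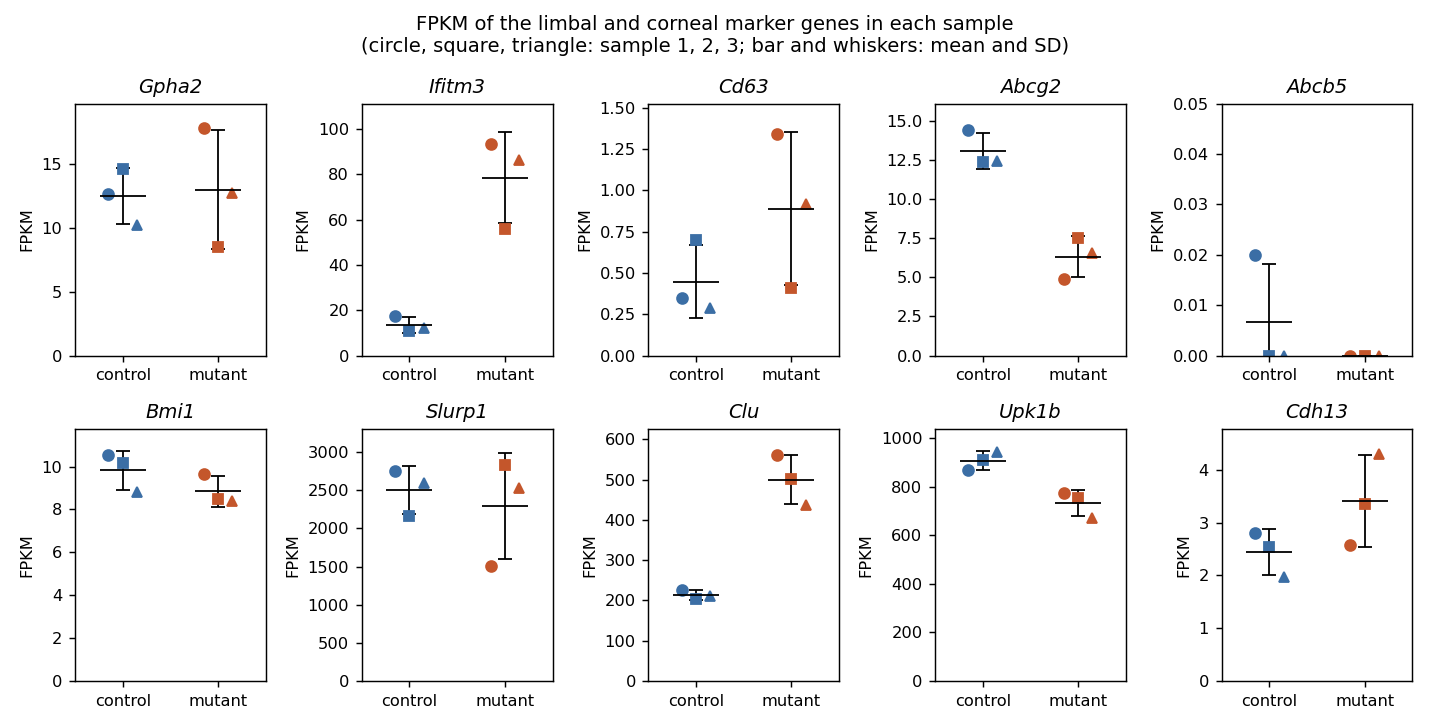
FPKM (vertical axis, linear, starting at 0) of each of the 10 genes in 3 control and 3 mutant samples, with circle, square and triangle for samples 1, 2 and 3 and a bar with whiskers for mean and SD. *Ifitm3* and *Clu* lie higher in every mutant sample, *Abcg2* and *Upk1b* lie lower in every mutant sample, and the groups of the other 6 overlap.

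*Ifitm3* and *Clu* rose in mutant corneas, *Abcg2* and *Upk1b* fell, and the other 5 genes that could be tested did not pass the threshold. Each gene was tested by the quasi-likelihood method of edgeR on rounded expected counts, and p-values were adjusted by the Benjamini-Hochberg method over 12667 genes. Of the 9 genes tested, 4 had an adjusted p under 0.05, 2 in each direction, against 13.2% of all tested genes (7.82% higher and 5.42% lower). The study's methods ask for an adjusted p no higher than 0.001 and a change of 2-fold or more, and by these stricter thresholds *Ifitm3* and *Clu* were differentially expressed, against 1.37% of all genes (1.31% higher and 0.0553% lower). The FPKM of the groups did not overlap for 4 of the 10 genes, 2 in each direction, against 32.6% of all tested genes (17.5% higher and 15.2% lower). The median log2 fold change, mutant over control, was 0.055 over the 9 genes and -0.0028 over all genes, and the median of its absolute size was 0.49 and 0.16. These are bulk samples, in which fewer cells of a zone and less RNA per cell cannot be told apart.

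**Figure D2:**
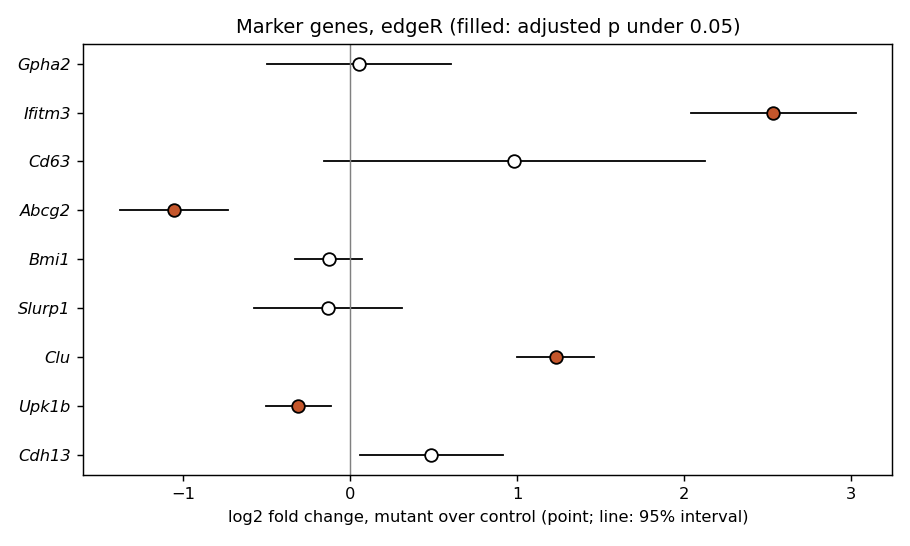
Log2 fold change, mutant over control, from edgeR for the 9 genes tested, with its 95% interval as a line and filled points for an adjusted p under 0.05. *Ifitm3* (2.54) and *Clu* (1.23) lie to the right of 0, *Abcg2* (-1.06) and *Upk1b* (-0.31) to the left.

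Of the outer limbal genes *Ifitm3* rose, and *Gpha2* and *Cd63* did not pass the test. *Ifitm3* (gene 66141, chr7:141009590-141010744, minus strand) encodes an interferon-induced membrane protein that keeps viruses from fusing with endosomes. Its FPKM was 17.6, 10.7 and 12.2 in control samples 1 to 3 and 93.4, 55.7 and 86.3 in mutant samples 1 to 3. The lowest mutant sample lay above the highest control sample by a wide margin. Mean FPKM rose 5.81-fold, from 13.5 ± 3.6 (SD, n = 3) in control mice to 78.5 ± 20.03 (SD, n = 3) in mutant mice. The log2 fold change was 2.54 (standard error 0.22, 95% interval 2.04 to 3.03, adjusted p = 1.23e-04, edgeR). An exact two-sided permutation test of its FPKM gave p = 0.1, the smallest p that 3 against 3 samples allow, as it did for *Abcg2*, *Clu* and *Upk1b*. Of the 50-base windows of *Ifitm3* transcripts, 10.02% also occur in transcripts of 5 other genes, *Ifitm1* and *Ifitm2* among them. The share of its counts that RSEM took from shared reads was not measured, and *Ifitm1* had 36.6 to 60.7 times its FPKM in control samples.

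*Gpha2* (gene 170458, chr19:6226401-6227768, plus strand) encodes an alpha subunit of the glycoprotein hormone family. Its FPKM was 12.7, 14.7 and 10.2 in control samples and 17.8, 8.48 and 12.7 in mutant samples. The mutant samples spanned the whole control range and more, with mutant sample 1 the highest of the 6 and mutant sample 2 the lowest. The mean was 12.5 ± 2.2 (SD, n = 3) against 13.0 ± 4.7 (SD, n = 3). Its log2 fold change was 0.055 with a 95% interval of -0.50 to 0.61 (adjusted p = 0.914, edgeR), which leaves room for a rise or a fall. The sign was negative without control sample 3 (-0.061) and without mutant sample 1 (-0.25). *Gpha2* lies 576770 bases after the end of *Rela* on chromosome 19.

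*Cd63* (gene 12512, chr10:128908919-128912822, plus strand), a tetraspanin of late endosomes and exosomes, was near the lower limit of the measurement. It had 6, 12 and 5 expected counts in control samples and 23, 7 and 16 in mutant samples. The corresponding FPKM was 0.35, 0.70 and 0.29 against 1.34, 0.41 and 0.92. The groups overlapped, since mutant sample 2 lay below control sample 2. Its log2 fold change was 0.98 with a 95% interval of -0.16 to 2.13 (adjusted p = 0.240, edgeR). Of its 50-base windows 11.02% are shared with other genes, 387 of them with the pseudogene *Cd63-ps*, and the part of shared reads in this low level was not tested.

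Among the general limbal stem cell markers, *Abcg2* fell in mutant corneas, *Bmi1* did not pass the test and *Abcb5* was not detectable. *Abcg2* (gene 26357, chr6:58584491-58694861, plus strand) encodes a transporter that pumps dyes and drugs out of cells and defines the side population of stem cells. Its FPKM was 14.5, 12.4 and 12.5 in control samples and 4.90, 7.53 and 6.57 in mutant samples. Every mutant sample lay below every control sample, and mutant sample 1 was the lowest. The mean was 13.1 ± 1.2 (SD, n = 3) in control and 6.33 ± 1.33 (SD, n = 3) in mutant mice, 2.07-fold higher in control. The log2 fold change was -1.06 (standard error 0.14, 95% interval -1.38 to -0.73, adjusted p = 0.00145, edgeR). It missed the stricter threshold of 0.001 on the adjusted p, which it met with DESeq2 (log2 fold change -1.05, adjusted p = 9.7e-10) and in edgeR with no filter on low counts (-1.06, adjusted p = 3.3e-04).

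*Bmi1* (gene 12151, chr2:18677018-18686629, plus strand) encodes a subunit of Polycomb repressive complex 1, which silences genes through chromatin. Its FPKM was 10.5, 10.2 and 8.81 in control samples and 9.66, 8.48 and 8.39 in mutant samples, and the groups overlapped. The log2 fold change was -0.13 with a 95% interval of -0.33 to 0.07 (adjusted p = 0.385, edgeR). This was the narrowest interval of the 5 genes that did not pass. Of its 50-base windows 16.7% are shared, 650 of them with *Gm5946*. *Abcb5* (gene 77706, chr12:118867486-118966547, minus strand), a transporter that has been used to isolate limbal stem cells, had 1 expected count in control sample 1 and 0 in the other 5 samples. It lay under the level of 3 counts in every sample, was not tested, and at this depth was not detectable in either genotype.

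Of the corneal genes *Clu* rose, *Upk1b* fell slightly, and *Slurp1* varied more between mutant samples than between genotypes. *Clu* (gene 12759, chr14:65968483-65981548, plus strand) encodes clusterin, a secreted chaperone that protects the ocular surface. Its FPKM was 226, 204 and 211 in control samples and 560, 501 and 438 in mutant samples. Control samples lay close together, and the lowest mutant sample stood well clear of them. The mean was 213 ± 11 (SD, n = 3) against 500 ± 61 (SD, n = 3), 2.34-fold higher in mutant mice. Its log2 fold change was 1.23 (standard error 0.10, 95% interval 1.00 to 1.46, adjusted p = 9.1e-05, edgeR).

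*Upk1b* (gene 22268, chr16:38773182-38800203, minus strand) encodes a uroplakin, a tetraspanin of the plaques on the surface of urothelium that is also abundant in cornea. Its FPKM was 867, 912 and 944 in control samples and 773, 755 and 671 in mutant samples. The groups did not overlap, and the mean fell from 908 ± 39 (SD, n = 3) to 733 ± 54 (SD, n = 3), 1.24-fold higher in control. The log2 fold change was -0.31 (standard error 0.087, 95% interval -0.51 to -0.12, adjusted p = 0.0438, edgeR). This call was lost under 9 of 14 other settings, with an adjusted p of up to 0.149, while the direction held in all 14. Each control sample and mutant samples 2 and 3, left out alone, ended the call.

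*Slurp1* (gene 57277, chr15:74724385-74728026, plus strand) encodes a secreted Ly6 domain protein of cornea and skin that dampens inflammation. It was the highest of the 10 genes, with an FPKM of 2756, 2158 and 2599 in control samples and 1506, 2833 and 2532 in mutant samples. Mutant sample 1 was the lowest of all 6 and mutant sample 2 the highest. The mean was 2505 ± 310 (SD, n = 3) against 2290.4 ± 696 (SD, n = 3), a coefficient of variation of 12.4% in control and 30.4% in mutant mice. Its log2 fold change was -0.13 with a 95% interval of -0.58 to 0.31 (adjusted p = 0.710, edgeR). Without mutant sample 1 the log2 fold change was 0.090. Of the exon bases of *Slurp1*, 10.98% overlap *Them6* on the same strand.

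*Cdh13* (gene 12554, chr8:118140017-119324929, plus strand) had an FPKM of 2.81, 2.54 and 1.96 in control samples and 2.57, 3.36 and 4.30 in mutant samples. Mutant sample 1 lay within the control range and the other 2 above it. The mean was 2.44 ± 0.43 (SD, n = 3) against 3.41 ± 0.87 (SD, n = 3). Its log2 fold change was 0.49 with an unadjusted 95% interval of 0.06 to 0.92, but it did not pass after adjustment (adjusted p = 0.130, edgeR). Among 14 other settings it passed only without mutant sample 1, with a log2 fold change of 0.65 (adjusted p = 0.0254 in the same test). Mutant sample 1 was the highest or lowest of the mutant samples in all 9 genes tested, highest in 6 and lowest in *Abcg2*, *Slurp1* and *Cdh13*, while each other sample was at an end of its group in 4 to 7.

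**Figure D3:**
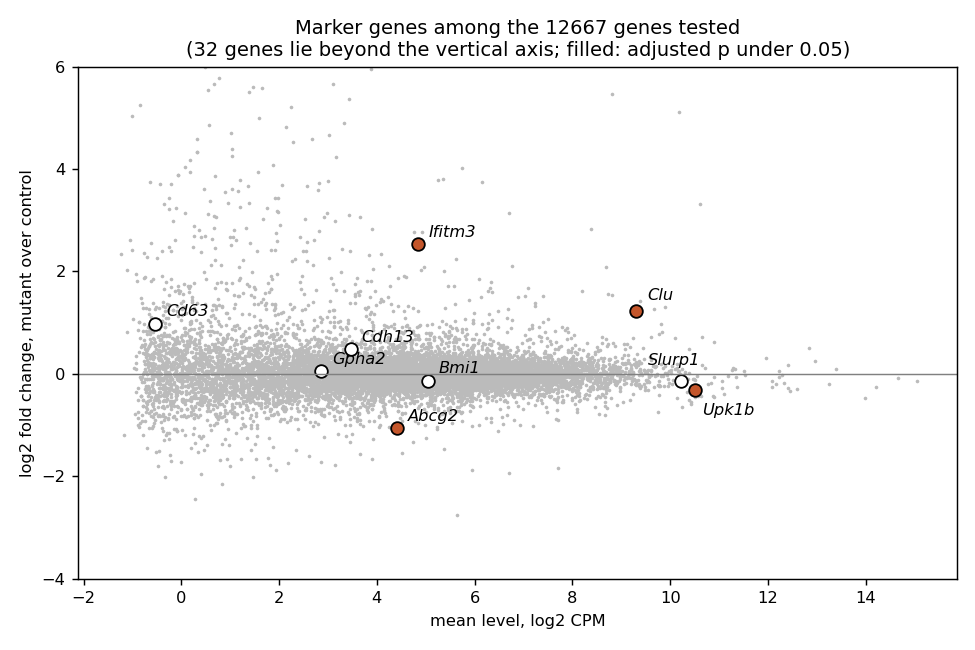
Log2 fold change, mutant over control, against mean level (log2 CPM) for the genes tested by edgeR (grey), with 9 marker genes as large points, filled where the adjusted p was under 0.05. The axis from -4 to 6 leaves out 32 of the 12667 genes. *Ifitm3* and *Clu* lie above the band of other genes at their level, *Abcg2* lies below it, and *Slurp1* and *Upk1b* lie near 0 among the highest genes.

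The relatives of each marker were counted from lists that hold none of the 10 genes, and their counts stand beside the 7.82% of all tested genes that rose and 5.42% that fell. In the Ifitm family, *Ifitm1* and *Ifitm2* rose, out of 3 other members that passed the filter. *Ifitm1* had an FPKM of 642, 651 and 676 in control samples and 1205, 957 and 778 in mutant samples (log2 fold change 0.58, adjusted p = 0.0276, edgeR). *Ifitm2* had an FPKM of 70.6, 61.3 and 59.8 against 120, 92.3 and 127 (log2 fold change 0.82, adjusted p = 0.00201 in the same test), with 48.5% of its 50-base windows shared. The 5.81-fold rise of *Ifitm3* stood beside 1.49-fold for *Ifitm1* and 1.77-fold for *Ifitm2* in mean FPKM, and the difference between them was not tested. Its share of the summed FPKM of the 3 genes was 2.40%, 1.48% and 1.63% in control samples and 6.59%, 5.04% and 8.71% in mutant samples.

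Several relatives of *Slurp1* in the Ly6/uPAR family changed more than *Slurp1* itself. Of 12 members tested, 5 rose and 1 fell, with a median log2 fold change of 0.45. *Plaur*, the urokinase receptor, had an FPKM of 0.27, 0.10 and 0.21 in control samples and 6.92, 4.27 and 5.59 in mutant samples (log2 fold change 4.82, adjusted p = 2.6e-05, edgeR). *Ly6d*, a surface marker of squamous epithelium, had 1.61, 0.93 and 1.46 against 35.2, 23.1 and 17.2 (log2 fold change 4.23, adjusted p = 6.2e-05 in the same test). *Ly6c1* and *Ly6a* rose too, with log2 fold changes of 2.24 and 1.06, and 32.8% and 19.0% of their 50-base windows are shared with other genes. *Lypd2* fell by 0.45 on the log2 scale (adjusted p = 0.0474). *Slurp2* (-0.086) and *Lynx1* (-0.035), which like *Slurp1* act on nicotinic receptors, did not pass, with adjusted p of 0.883 and 0.822 in the same edgeR test.

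*Cd63* and *Upk1b* are both tetraspanins, membrane organisers that cross the membrane several times. Of 17 other tetraspanins tested, 2 rose and 2 fell, with a median log2 fold change of -0.019. *Cd81* rose from a mean FPKM of 25.3 ± 3.2 to 40.8 ± 2.1, and *Cd82* fell from 210.7 ± 9.6 to 150.3 ± 5.6 (SD, n = 3 each). *Tspan15* fell with a log2 fold change of -0.67 and *Tspan8* rose with 1.62 from a low level. Of the uroplakins that join *Upk1b* in plaques, *Upk3b* fell (-0.90, adjusted p = 0.0116) and *Upk2* rose (1.14, adjusted p = 0.0267, edgeR with Benjamini-Hochberg adjustment), both under an FPKM of 9 in every sample.

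Of 15 subunits of Polycomb repressive complex 1 other than *Bmi1*, 2 fell, *Cbx8* (log2 fold change -0.58) and *Cbx7* (-0.46), and none rose. Beside the fall of *Abcg2*, none of 9 other tested ABC transporters of subfamilies B and G passed in the main edgeR fit or DESeq2. In edgeR 1 of them was higher at an unadjusted p under 0.05, and without mutant sample 1 a single gene of that list was called lower. Among 5 tested classical cadherins and relatives, *Cdh3*, or P-cadherin, rose (2.11) and the other 4 did not pass. Of the clusterin receptors, *Vldlr* fell (-1.17) and *Lrp8* rose (0.89), both at an FPKM under 2.

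**Figure D4:**
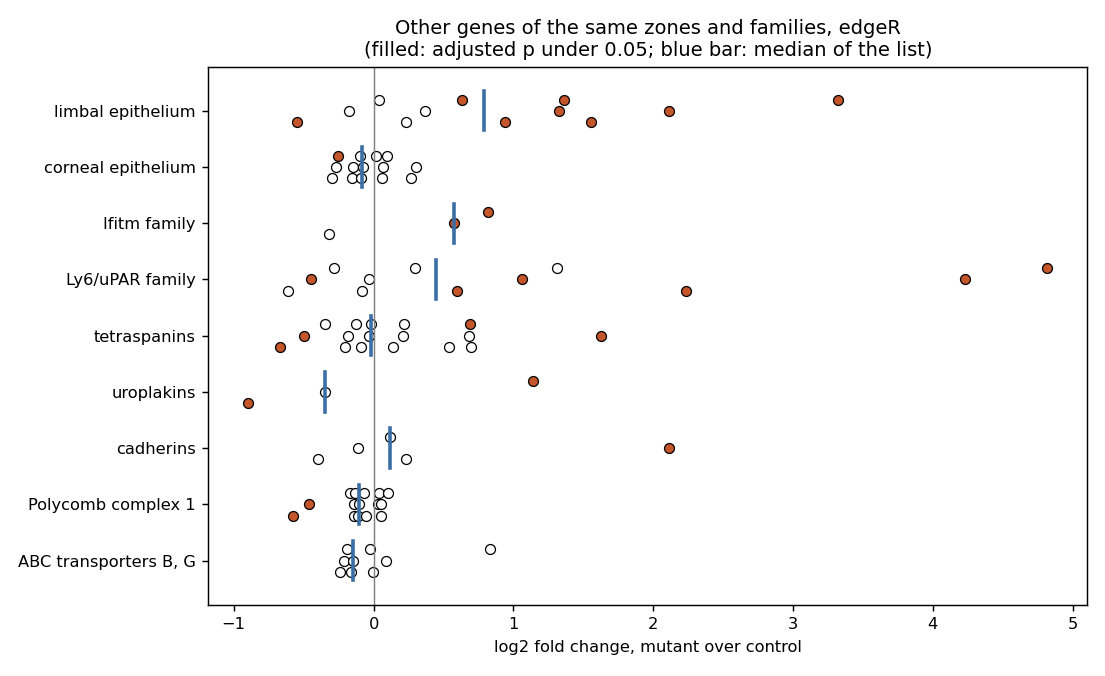
Log2 fold change, mutant over control, from edgeR for other genes of the same zones and families, 1 point a gene, filled where the adjusted p was under 0.05, with a blue bar at the median of each list. The limbal list has its median at 0.79 and 8 filled points, 7 of them to the right of 0, while the corneal list has its median at -0.083 and 1 filled point. The lists were chosen with earlier results of these data known.

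Other markers of the same zones were counted from a list of limbal and a list of corneal epithelium genes. Both lists were chosen with earlier results of these data known, so their counts describe the listed genes and do not test a difference between the zones. Of 12 limbal genes tested, 7 rose, 1 fell and 4 did not pass, with a median log2 fold change of 0.79. Over all tested genes 7.82% rose and 5.42% fell. *Krt14*, the basal keratin whose promoter drives the recombinase, had an FPKM of 203, 150 and 181 in control samples and 2204, 1580 and 1474 in mutant samples (log2 fold change 3.32, adjusted p = 1.1e-05, edgeR). Of its 50-base windows 13.9% are shared, most of these with *Krt16*. *Cdh3* rose from 2.39, 1.29 and 1.59 to 8.29, 7.72 and 6.74 (log2 fold change 2.11, adjusted p = 1.63e-04 in the same test). The metallothioneins *Mt2* (1.56) and *Mt1* (1.32), which bind zinc and copper, and the stress-responsive factor *Atf3* (1.36) rose, as did *Cebpd* (0.94), which restrains cycling of limbal stem cells, and the integrin *Itgb1* (0.63).

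The limbal list did not move in 1 direction. *Krt15*, a keratin of basal limbal cells, fell, with an FPKM of 950, 969 and 922 in control samples against 795, 486 and 666 in mutant samples (log2 fold change -0.55, adjusted p = 0.0389, edgeR). *Trp63*, the master factor of basal epithelial cells, did not pass (log2 fold change 0.037). *Wnt7a* and *Frzb* of that list had no entry under these symbols among the 17554 genes, and *Itga9* was too low to test.

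Of 14 corneal genes tested, none rose, 1 fell and 13 did not pass in edgeR, with a median log2 fold change of -0.083. At an unadjusted p under 0.05 the split was 2 higher and 3 lower, and the matching share of all genes was not counted. DESeq2 called 1 higher and 3 lower, against 1822 of 12667 genes in either direction. The summed FPKM of the list was 53237 to 57765 in control and 46895 to 51619 in mutant samples. *Aldh3a1*, a crystallin-like enzyme of the corneal epithelium, fell by 0.25 on the log2 scale (adjusted p = 0.0466, edgeR). *Krt12*, the keratin of differentiated cornea, did not pass (log2 fold change -0.15, adjusted p = 0.263), nor did *Pax6*, the eye field factor (-0.15, adjusted p = 0.190). Over all tested genes 13.2% passed in either direction, so the count of 1 in 14 says nothing particular about the corneal markers.

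Of 32 genes called in these lists, the other cell types below included, 17 passed under every other setting that tested them. Of these, *Dcn* and *Plaur* were not tested when 10 counts were asked of every sample, and the other 15 passed under all 14 settings. The calls of *Ifitm1*, *Ly6a*, *Lypd2*, *Tspan8*, *Cbx7*, *Vldlr*, *Krt15* and *Aldh3a1* were lost whichever control sample was left out, with an adjusted p of up to 0.354 in *Aldh3a1* over all settings. Those of *Atf3*, *Cbx8*, *Krt13*, *Lrp8*, *Upk2*, *Upk3b* and *Acta2* were lost under 1 to 5 settings.

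Markers of other cell types that the layer could hold were measured beside these results. Of 6 conjunctival genes tested none rose and 2 fell, *Krt13* (log2 fold change -0.45) and *Krt8* (-1.43). At an unadjusted p under 0.05 in edgeR 3 were lower and 1 higher, *Krt18* (1.42, adjusted p = 0.0667). Without mutant sample 1 the calls were 1 higher and 3 lower. The summed FPKM of the list was 1398 to 1621 in control and 1099 to 1219 in mutant samples. Most of it was *Krt13* (1191 to 1404 and 939 to 1061), and *Muc5ac* of goblet cells was at 0.01 or less. Of 8 keratocyte and fibroblast genes 2 were tested. The summed FPKM of the 8 was 2.29 to 2.65 in control and 1.69 to 4.55 in mutant samples, with *Kera* at 0.07 or less in every sample. *Pdgfra* alone had 2.07 to 2.50 in control and 1.17 to 1.48 in mutant samples, so that it made up most of the control sum. *Dcn* had 3, 2 and 1 counts in control samples and 66, 34 and 14 in mutant samples and rose (adjusted p = 0.00507, edgeR), and *Pdgfra* fell (-0.78). The other genes of that list were too low for the filter of the main fit. Among them *Col3a1* had 1, 0 and 0 counts against 32, 15 and 6, *Col1a1* 1, 1 and 2 against 23, 23 and 6, and *Lum* 0, 1 and 0 against 23, 10 and 0. In the main fit 1 gene of that list was called higher, against 3 with no filter and 4 without mutant sample 3. Without control sample 1 or 3 there were 3, and under the other alternatives 0 or 1. Of 7 leukocyte genes 2 were tested, *Itgam* and *Cd68*, and neither passed in edgeR or DESeq2 or had an unadjusted p under 0.05. The 7 genes had a summed FPKM of 81.3 to 89.3 in control and 73.5 to 120.9 in mutant samples. Most of it was *Itgam* (63.9 to 67.2 and 51.0 to 94.8) and *Cd68* (17.3 to 21.8 and 22.1 to 24.5). *Ptprc* was at 0.15 FPKM or less, while *Lyz2* had 0, 0 and 1 counts against 23.7, 13 and 3.79. With no filter, and without mutant sample 3, 1 leukocyte gene was called higher. Vessel endothelium had a summed FPKM of 0.03 to 0.12 in control and 0.14 to 0.24 in mutant samples and no gene that could be tested.

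Neither of 2 epidermal genes tested (summed FPKM 5.94 to 6.77 against 4.99 to 6.31), none of 3 melanocyte genes (4.31 to 4.97 against 4.65 to 5.25) and not the 1 nerve gene tested (0.85 to 1.03 against 0.82 to 1.05) passed in edgeR or DESeq2, and none of these 6 had an unadjusted p under 0.05 in edgeR. Of 2 lens and iris genes tested *Acta2* rose, and both were higher at an unadjusted p under 0.05 in edgeR. Their median log2 fold change was 1.32, and the summed FPKM of the list was 0.95 to 2.72 against 2.91 to 7.33. Mutant sample 1 had the highest *Dcn* and *Lyz2* of the 6 samples, and it also had the highest *Ifitm3* and *Clu* and the lowest *Abcg2*. The other mutant samples did not keep that order. *Dcn*, *Lyz2* and *Clu* were higher in mutant sample 2 than in mutant sample 3, while *Ifitm3* was lower and *Abcg2* higher in mutant sample 2. The part of these other cells in the differences of *Ifitm3*, *Clu*, *Abcg2* and *Upk1b* was not tested. Without mutant sample 1, *Ifitm3*, *Clu* and *Abcg2* kept their direction and an adjusted p under 0.05. That fit does not test the part of other cells, since mutant samples 2 and 3 still had 34 and 14 counts of *Dcn*, against 3, 2 and 1 in control samples.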

How the data were processed

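Corneal epithelial RNA of 3 control and 3 *Krt14-Cre; Rela* f/f mice was compared. The study's methods describe 3 independent samples a group, rRNA depletion and single-end reads on a BGISEQ-500, while the labels name an Illumina TruSeq kit. Per the labels and methods the authors aligned reads with Bowtie2 2.2.5 and estimated expected counts and FPKM with RSEM 1.2.12. The deposited expected counts are neither normalized nor pooled, and 31.5% to 32.2% of a sample's values are not whole because RSEM divides reads that match several genes. The deposited FPKM values are scaled by transcript length and sample total. The labels name build mm9, but the coordinates in the deposited table are those of GRCm38. Columns of the authors' group means and of their fold changes, p-values and q-values were not used, and 0 other per-sample columns were left unused.

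Expected counts were rounded to whole numbers and tested with edgeR 4.0.16 in R 4.3.3 (TMM scaling, filterByExpr at its minimum count of 10 and total of 15, quasi-likelihood test, genotype as the only term), with Benjamini-Hochberg adjustment over 12667 genes. Standard errors of log2 fold changes were derived from the F statistic. For FPKM of single genes, exact permutation tests (two-sided) were used, which cannot give a p below 0.1 at this sample size. Total expected counts of 19492942 to 19733834 per sample set the precision, and intervals cover the spread between samples. Shared 50-base windows and exon overlaps come from GENCODE transcripts of GRCm38, and 17434 of 17554 genes matched RefSeq by identifier.

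The genes and lists were chosen with earlier results of these data known. Named were the 10 genes, *Rela* and, of each list, up to 4 genes past an adjusted p of 0.05 with the largest changes and genes that share reads with a marker. Genes named beyond that rule, such as *Mt1*, *Cebpd*, *Itgb1*, *Itga9*, *Krt15*, *Trp63*, *Krt12*, *Pax6*, *Slurp2*, *Lynx1*, *Lypd2*, *Krt18*, *Lyz2*, *Kera*, *Col3a1*, *Col1a1*, *Lum*, *Muc5ac*, *Ptprc*, *Itgam* and *Cd68*, were chosen after their values were seen. The list of glycoprotein hormone subunits had 1 gene tested, which did not pass. Alternatives were DESeq2 1.42.0, upper-quartile scaling, total counts alone, at least 10 counts in every sample, no filter, limma 3.58.1 on log2(FPKM + 1) and log2(FPKM + 0.1), the replicate number as a block, and each sample left out in turn.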

Additional observations from a re-analysis of the deposited data

How the results depend on the processing

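*Ifitm3* (log2 fold change 2.38 to 2.76, adjusted p up to 0.00225), *Clu* (1.14 to 1.33, up to 0.00213) and *Abcg2* (-1.20 to -0.91, up to 0.00961) kept their direction and an adjusted p under 0.05 under all 14 alternatives. *Upk1b* kept its direction (-0.36 to -0.24) but lost its call under 9 of 14: with at least 10 counts in every sample (-0.31, adjusted p = 0.0503), with limma and a pseudocount of 1 (-0.31, 0.0580) or 0.1 (-0.31, 0.0566), with the replicate block (-0.31, 0.0951) and in 5 of the 6 fits that left out a sample. *Bmi1* (-0.19 to -0.090) and *Cd63* (0.37 to 1.45, 13 alternatives) passed under none, and *Cdh13* (0.29 to 0.65) only without mutant sample 1. *Gpha2* reversed without control sample 3 (-0.061) and without mutant sample 1 (-0.25), in a range of -0.25 to 0.28 over left-out samples. *Slurp1* reversed without mutant sample 1 (0.090), in a range of -0.32 to 0.090.

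Of the 10 genes, 3 to 5 passed an adjusted p of 0.05 when a sample was left out and 3 to 4 under the other alternatives, while 0 to 2 were differentially expressed when a sample was left out, 0 without control sample 2 or 3, and 2 to 3 under the other alternatives, 3 with DESeq2 or no filter. Over all genes 857 to 1869 passed 0.05 when a sample was left out, against 1678, with 857 without control sample 2 and 999 without control sample 3. The number differentially expressed was 330 with DESeq2, 114 with limma and a pseudocount of 1, and 36 to 193 when a sample was left out, with 36, 56 and 88 without control samples 2, 3 and 1, against 173. In the lists of relatives and zone markers 18 genes rose and 9 fell, with 12 to 18 and 3 to 8 when a sample was left out, 3 fallen without any 1 of the control samples. The cause of these changes was not tested. No scaling moved the median of all genes by more than 0.014 on the log2 scale. The replicate numbers did not pair the samples, since deviations of same-numbered samples correlated at 0.019, 0.048 and -0.046, and not every sample correlated best with its own number. The replicate block ended no marker call other than that of *Upk1b*. At this depth *Cd63* had 5 to 23 expected counts a sample and *Abcb5* at most 1, and the cause of these low counts was not tested. The intervals of *Gpha2*, *Slurp1* and *Cdh13* rest on 3 samples a group.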
